A study of Mus musculus with 26 samples.

Results

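Spleen IgA clonotypes that also carried IgM copies were compared with spleen IgA clonotypes that did not. A clonotype was a V gene, a J gene and a junction nucleotide sequence, and a copy was 1 unit of the deposited count for a distinct sequence. The 2 technical tables of each spleen replicate were added together, and 9763 clonotypes reached at least 5 IgA copies, out of 993128 spleen clonotypes of any class. They were chosen by their measured IgA and IgM copies. Of these, 1967 had at least 1 IgM copy of the same clonotype and are called linked here. The other 7796 had 0 IgM copies of the same clonotype and are called unlinked. Linked and unlinked clonotypes came from the same 4 spleens, so each comparison was made within a replicate.

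The study sequenced heavy-chain transcripts from skin, spleen and lymph node, each with 4 biological replicates in 2 technical libraries, and a positive control, 26 libraries in all. All 8 spleen libraries carried the labels WT, S. epidermidies association and B cells, so the linked and unlinked clonotypes share genotype and treatment and no unassociated spleen entered. Spleen is what the titles say, while the tissue field of the same libraries reads ear skin. Age and sex are not given in the labels, and a library of heavy-chain transcripts holds no marker genes with which to check the cell type.

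A B cell that leaves the bone marrow makes IgM. On activation it can exchange the IgM constant region for that of IgG, IgE or IgA by class switch recombination, which keeps the rearranged V, D and J segments. Its daughter cells can therefore carry the same junction in IgM and in IgA. In germinal centres, somatic hypermutation places point mutations in the V segment of both classes, so the mismatches of a sequence to its germline V gene record that history. In the spleen, marginal zone and follicular B cells are mostly IgM-positive, and IgA transcripts come from IgA plasma cells and memory B cells.

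The V segments of 4 linked clonotypes are printed here because they show how the IgA and IgM sequences of a clonotype relate. Each is the sequence with the most copies of its class, from the second complementarity-determining region (CDR2) through framework 3, from the deposited files, 5′ to 3′, with mismatches to the assigned V allele in capitals.
IGHV1-75/IGHJ2, replicate 2, IgA: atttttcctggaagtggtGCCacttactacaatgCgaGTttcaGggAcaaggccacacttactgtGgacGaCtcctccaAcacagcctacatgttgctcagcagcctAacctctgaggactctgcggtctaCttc
IGHV1-75/IGHJ2, replicate 2, IgM: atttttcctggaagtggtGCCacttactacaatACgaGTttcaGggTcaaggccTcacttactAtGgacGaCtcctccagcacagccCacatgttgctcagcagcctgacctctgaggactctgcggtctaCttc
IGHV14-3/IGHJ4, replicate 3, IgA: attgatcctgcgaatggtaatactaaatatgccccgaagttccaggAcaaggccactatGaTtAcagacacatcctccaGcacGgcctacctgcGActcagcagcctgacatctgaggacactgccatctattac
IGHV14-3/IGHJ4, replicate 3, IgM: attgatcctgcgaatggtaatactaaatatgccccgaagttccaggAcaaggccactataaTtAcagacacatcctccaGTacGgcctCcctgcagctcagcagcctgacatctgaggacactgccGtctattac
IGHV6-3/IGHJ3, replicate 1, IgA: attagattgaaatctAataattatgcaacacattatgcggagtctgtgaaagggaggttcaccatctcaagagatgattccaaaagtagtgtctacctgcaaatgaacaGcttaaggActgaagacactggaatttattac
IGHV6-3/IGHJ3, replicate 1, IgM: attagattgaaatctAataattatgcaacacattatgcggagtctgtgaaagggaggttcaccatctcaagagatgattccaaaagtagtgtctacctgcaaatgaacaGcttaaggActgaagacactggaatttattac
IGHV1-55/IGHJ2, replicate 4, IgA: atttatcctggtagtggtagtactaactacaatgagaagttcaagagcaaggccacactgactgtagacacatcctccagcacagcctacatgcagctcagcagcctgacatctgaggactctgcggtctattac
IGHV1-55/IGHJ2, replicate 4, IgM: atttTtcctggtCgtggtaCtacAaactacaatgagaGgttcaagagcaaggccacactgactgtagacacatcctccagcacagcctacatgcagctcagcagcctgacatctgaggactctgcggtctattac
The first 2 pairs share part of their capitals and each sequence also has capitals of its own. The IGHV6-3 pair is identical, and in the IGHV1-55 pair the IgM sequence alone is mismatched.

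The junctions define the same clonotypes, and the junction of the largest unlinked clonotype of replicate 2 is set beside them.
IGHV1-75/IGHJ2, replicate 2, linked: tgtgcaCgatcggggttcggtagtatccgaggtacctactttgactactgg
IGHV14-3/IGHJ4, replicate 3, linked: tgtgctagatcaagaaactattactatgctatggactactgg
IGHV6-3/IGHJ3, replicate 1, linked: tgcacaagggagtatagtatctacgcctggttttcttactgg
IGHV1-55/IGHJ2, replicate 4, linked: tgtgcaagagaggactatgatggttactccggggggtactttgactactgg
IGHV3-6/IGHJ1, replicate 2, unlinked: tgtgctgactatggtaacctcgatgtctgg
In the IGHV1-75 junction 1 base from the V segment is a mismatch. The V genes lie on chromosome 12 in mm10 coordinates, and RefSeq (GRCm38.p6) annotates each as a V segment: Ighv14-3 at 114059845 to 114060273, Ighv3-6 at 114288152 to 114288447, Ighv6-3 at 114391712 to 114392010, Ighv1-55 at 115208137 to 115208527 and Ighv1-75 at 115833950 to 115834243.

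The IGHV1-75/IGHJ2 clonotype was the largest linked clonotype, with 10003 IgA and 4641 IgM copies, both classes in both technical tables. Its main IgA sequence had 15 mismatches and its main IgM sequence 17. The IGHV14-3/IGHJ4 clonotype had 1676 IgA and 644 IgM copies and 8 mismatches in the main sequence of each class. The IGHV6-3/IGHJ3 clonotype had 259 IgA and 154 IgM copies. Its main IgA sequence, 170 of the IgA copies, had 3 mismatches, as did all 154 IgM copies, which were 1 sequence in 1 technical table. The IGHV1-55/IGHJ2 clonotype had 31 IgA copies, all without mismatch, and 2840 IgM copies, all of 1 sequence with 5 mismatches. In contrast, the unlinked IGHV3-6/IGHJ1 clonotype had 15626 IgA copies of 1 unmutated sequence and 0 IgM copies, where 3 copies would be 0.0192% of its IgA copies. The main sequences of these 4 linked clonotypes thus ranged from 0 to 15 mismatches in IgA and from 3 to 17 in IgM.

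The spleen replicates differed in depth, with 162168, 1362176, 457138 and 694744 copies in replicates 1 to 4, and single libraries held 79235 to 683759. Linked clonotypes numbered 59, 1446, 178 and 284, and unlinked clonotypes 1016, 2664, 1735 and 2381. The linked share of IgA clonotypes was 5.49% (exact 95% interval 4.20% to 7.02%) in replicate 1, 35.2% (33.7% to 36.7%) in replicate 2, 9.30% (8.04% to 10.7%) in replicate 3 and 10.7% (9.51% to 11.9%) in replicate 4. Replicate 2, the deepest, stood far above the others, also when every replicate was thinned to 162168 copies (29.3% against 5.49%, 8.90% and 9.87%). The intervals cover counting error only. In these bulk libraries, fewer IgM cells and less IgM RNA per cell cannot be told apart, and both bear on which clonotypes are linked.

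Clone size is part of the rule and is given as description. The median IgA copy number was 16, 23, 23 and 24 for linked clonotypes in replicates 1 to 4, against 12, 13, 14 and 15 for unlinked ones. The linked share was higher among large clonotypes: at 100 or more IgA copies it was 8.24%, 54.2%, 23.6% and 16.9%, and at 5 to 9 copies it was 5.35%, 27.0%, 5.97% and 7.87%. Linked clonotypes held 5.92%, 45.0%, 22.5% and 17.3% of the IgA copies of all clonotypes compared.

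Most linked clonotypes had few IgM copies. The median was 4, 7, 6 and 6 IgM copies, and 28.8%, 27.3%, 28.7% and 30.3% had a single one. IgM copies outnumbered IgA copies in 12, 399, 32 and 57 linked clonotypes. IgM was found in both technical tables for 15.3%, 44.1%, 28.7% and 36.3% of linked clonotypes, so for most of them the IgM copies were seen in 1 table alone. Those seen in 1 table had a median of 3, 2, 3 and 2 IgM copies, but the largest had 154, 7743, 944 and 1332. Few copies therefore do not describe all of them, and why large numbers were in 1 table alone was not tested. Just outside the IgA threshold, at 4 IgA copies, 7.32%, 22.4%, 5.97% and 5.19% of clonotypes had IgM copies, and just inside, at 5 copies, 7.48%, 26.7%, 5.71% and 4.41%.

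IgA sequences of linked clonotypes were less mutated than those of unlinked clonotypes in every replicate. Mutation, the percentage of aligned V nucleotides that mismatch the assigned allele averaged over clonotypes, was 2.23%, 2.21%, 2.27% and 1.90% in linked clonotypes of replicates 1 to 4, against 2.76%, 3.31%, 3.01% and 2.94% in unlinked clonotypes. The groups did not overlap. The means were 2.15% ± 0.173 in linked and 3.01% ± 0.227 in unlinked clonotypes (SD, n = 4 each), a difference of -0.85 ± 0.267 percentage points. An exact two-sided sign-flip permutation test over the 4 replicates gave p = 0.125, the smallest that 4 pairs allow, so no single value here can pass 0.05 with the pairing kept. Without the pairing, an exact permutation of the 8 values gave p = 0.0286, the smallest that 4 values against 4 allow. That value is reached whenever the groups do not overlap, here and in later comparisons, and it ignores that both groups share the spleens. Unlinked means no IgM copies with the same junction, so IgM copies with a related junction were not counted. With clonotypes of similar CDR3 joined into lineages, the linked share averaged 47.1% instead of 15.2%. The mean mutation difference was then -0.46 points, lower in linked lineages in 3 of 4 replicates (exact sign-flip permutation, p = 0.25, n = 4). A germline allele of these mice that is absent from the allele set would count as a mismatch in both classes, which was not tested.

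The size of the mutation difference between linked and unlinked clonotypes also depended on whether IgA copies were seen in both technical tables of a replicate. IgA copies were in both tables for 49.2%, 67.0%, 81.5% and 78.5% of linked clonotypes, against 48.7%, 94.3%, 97.9% and 97.1% of unlinked ones. Restricted to IgA in both tables, 29, 969, 145 and 223 linked clonotypes remained, with mutation of 3.22%, 3.06%, 2.71% and 2.32%, against 3.19%, 3.40%, 3.02% and 2.96% in unlinked clonotypes. There the linked value was lower in 3 of 4 replicates, the groups overlapped, and the mean difference was -0.32 (exact sign-flip permutation, p = 0.25, n = 4).

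Linked clonotypes with IgA in 1 table and IgM in both were the least mutated linked ones in replicates 2 to 4. These numbered 6, 331, 17 and 44, and their IgA mutation was 1.30%, 0.370%, 0.214% and 0.231%. In linked clonotypes with IgA and IgM in 1 table each, 24, 146, 16 and 17 in number, it was 1.28%, 0.789%, 0.439% and 0.605%. In unlinked clonotypes with IgA in 1 table, 521, 153, 36 and 68 in number, it was 2.36%, 1.85%, 2.87% and 2.28%. Thus, in replicates 2 to 4, linked clonotypes with IgA in 1 table and IgM in both had IgA sequences near germline. The mean IgA mutation of unlinked clonotypes with IgA in 1 table was not near germline. However, 7.35% to 32.1% of them, depending on the replicate, had no mismatch in any IgA copy. Among unlinked clonotypes with IgA in both tables that share was 1.71% to 5.66%, lower in every replicate. What led to IgA copies in 1 table alone was not tested. The files give no check of the class assigned to a copy, so whether some of these IgA copies belong to IgM was not tested either, and that bears on which clonotypes are linked and on their IgA mutation.

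**Figure D1:**
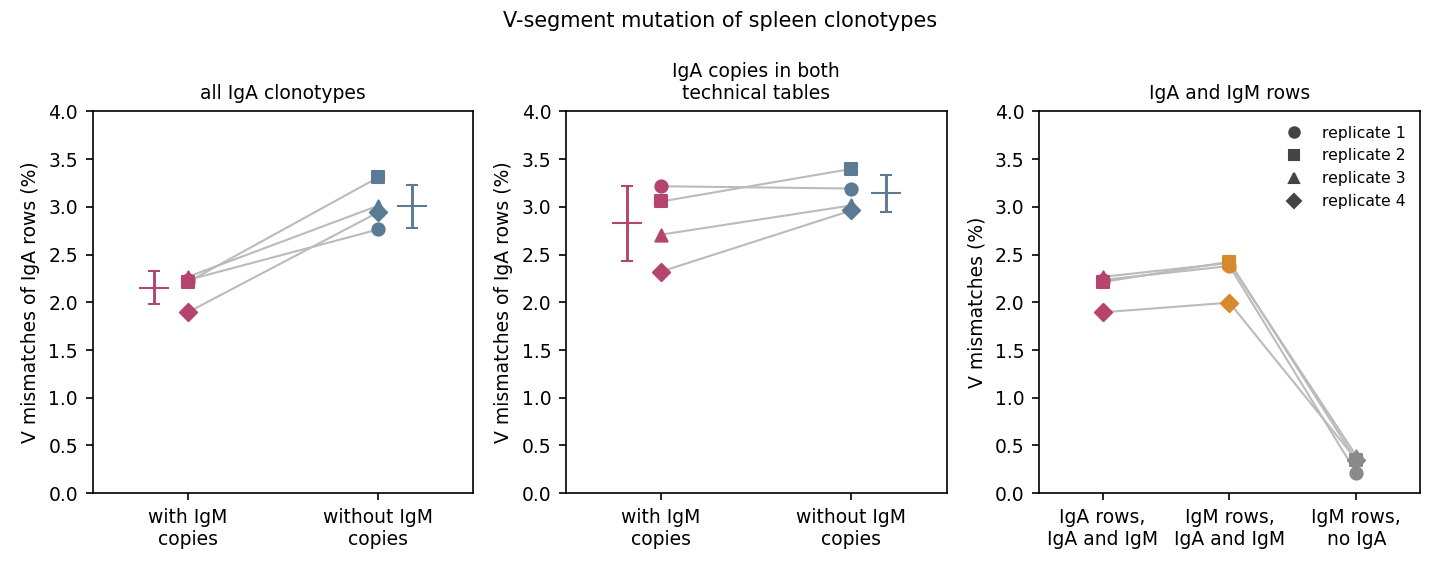
Percentage of mismatched V nucleotides per spleen replicate (vertical axis), with symbols for replicates, lines joining values of 1 replicate, and bars for the mean ± SD of 4 replicates in the first 2 panels. Linked clonotypes lie at 1.90% to 2.27% and unlinked at 2.76% to 3.31% over all IgA clonotypes, the groups overlap when IgA is required in both technical tables, and IgM sequences without IgA lie near the bottom at 0.214% to 0.390%.

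Wholly unmutated IgA clonotypes, with no mismatch in any IgA copy, made up 28.8%, 25.4%, 11.8% and 17.6% of linked clonotypes, against 19.2%, 4.50%, 1.96% and 2.31% of unlinked ones. The share was higher in linked clonotypes in 4 of 4 replicates, by 13.9 ± 5.34 percentage points (exact sign-flip permutation, p = 0.125, n = 4). With IgA required in both tables the direction turned, with 3.45%, 2.06%, 0.690% and 0.897% in linked clonotypes against 5.66%, 2.83%, 1.71% and 2.16% in unlinked ones. That measure falls with each further sequence of a clonotype. Taking only the IgA sequence with the most copies and keeping IgA in both tables, 27.6%, 26.2%, 25.5% and 30.0% of linked clonotypes were unmutated, against 25.9%, 21.7%, 21.5% and 23.3% of unlinked ones, again higher in 4 of 4 replicates.

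The spread within linked clonotypes was wide. By the main IgA sequence, 44.1%, 43.9%, 34.8% and 41.9% of linked clonotypes had 0 mismatches, against 32.7%, 22.8%, 21.6% and 23.2% of unlinked ones. Those with 10 or more mismatches made up 11.9%, 8.02%, 5.62% and 3.87% of linked clonotypes, against 10.9%, 12.1%, 8.47% and 7.94% of unlinked ones. Both classes therefore held germline-like and heavily mutated clonotypes.

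Mutation also varied with the amount of IgM. Where IgM copies were under 0.1 per IgA copy, IgA mutation was 2.96%, 2.93%, 3.32% and 2.39%. Where IgM copies equalled or outnumbered IgA copies, it was 2.66%, 1.17%, 1.30% and 0.878%. Just inside the IgM threshold, clonotypes with 1 IgM copy had IgA mutation of 1.85%, 3.0%, 2.74% and 2.27%, those with 2 or more had 2.39%, 1.92%, 2.08% and 1.73%, and those just outside, with 0, had 2.76%, 3.31%, 3.01% and 2.94%. In replicates 2 to 4, the clonotypes with more IgM were the less mutated ones. In replicate 1 the 12 clonotypes at each end of the ratio were close, and the 35 between them had 1.84%. Clone size differed along the ratio as well. The median was 45.5, 66, 51 and 43 IgA copies under 0.1, against 24, 13, 11 and 16 at 1 or more. Linked IgA mutation was 1.21%, 1.63%, 0.995% and 1.22% at 5 to 9 IgA copies, and 2.65%, 2.78%, 3.37% and 3.01% at 100 or more. Whether clone size or the amount of IgM goes with mutation was not tested.

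By V gene, mutation was lower in linked clonotypes for 4 of the 10 V genes that had at least 5 clonotypes of each kind in at least 3 replicates. That is 40% called lower and 0% called higher at an adjusted p under 0.05 in limma with a replicate term. IGHV1-26 had 1.95% in linked and 3.38% in unlinked clonotypes (difference -1.43 ± 0.273 SE, limma adjusted p = 0.00715, lower in 4 of 4 replicates). IGHV1-22, over 3 replicates, had 1.60% and 3.76% (difference -2.16 ± 0.429 SE, limma adjusted p = 0.00715). IGHV1-55 (2.69% in linked, 4.22% in unlinked, adjusted p = 0.0228) and IGHV1-82 (1.78% and 2.74%, adjusted p = 0.0484) were also lower, each in 3 of the 3 replicates that entered. IGHV1-53 had 2.82% in linked and 2.59% in unlinked clonotypes (adjusted p = 0.634). With IgA in both tables only IGHV1-22 passed (limma adjusted p = 0.0473), of 9 V genes tested.

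IgM sequences of linked clonotypes were about as mutated as their IgA sequences and far more mutated than IgM elsewhere. Linked IgM mutation was 2.38%, 2.43%, 2.41% and 2.0%, against 0.214%, 0.343%, 0.390% and 0.350% in IgM clonotypes of at least 5 copies with 0 IgA copies, which numbered 5413, 8978, 2631 and 4032. The groups did not overlap, and the mean difference was 1.98 ± 0.230 percentage points (exact sign-flip permutation, p = 0.125, n = 4, and p = 0.0286 in the exact test without pairing). The 2 sets differ in size rule, since a linked clonotype may hold 1 IgM copy. Within linked clonotypes, IgA mutation was 2.15% ± 0.173 and IgM mutation 2.30% ± 0.206 (SD, n = 4). IgA was lower than IgM in 4 of 4 replicates. The mean difference was -0.15 ± 0.0458 points (SD of the differences within replicates, exact sign-flip permutation, p = 0.125, n = 4). With each distinct sequence counted once the mean difference was -0.035, lower in 2 of 4 replicates, and with at least 2 IgM copies or IgA in both tables it was -0.058 and -0.075, lower in 3 of 4.

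Many mismatches were common to both classes. Among linked clonotypes whose main IgA sequence had at least 2 mismatches, 139 of 185, 3202 of 4082, 372 of 539 and 511 of 693 IgA mismatches were also in the main IgM sequence. These are 75.1%, 78.4%, 69.0% and 73.7%. At least 1 mismatch was shared in 86.2%, 86.6%, 82.3% and 83.1% of these clonotypes. IgM copies whose V segment and junction equalled an IgA sequence made up 58.7%, 48.7%, 52.4% and 43.2% of the IgM copies of linked clonotypes. Counted as distinct IgM sequences they made up 18.6%, 15.6%, 13.4% and 14.1%, so the identical sequences held more copies each than the others.

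The main IgA and IgM sequences stood in every possible relation. They had the same mismatches, 1 or more, in 20.3%, 15.5%, 16.9% and 15.5% of linked clonotypes, and neither had any in 11.9%, 30.3%, 20.2% and 25.7%. The IgM sequence was unmutated beside a mutated IgA sequence in 3.39%, 5.26%, 7.87% and 6.69%. The opposite, an unmutated IgA sequence beside a mutated IgM sequence as in the IGHV1-55 pair above, was more frequent in each replicate, with 32.2%, 13.6%, 14.6% and 16.2%. The IgM sequence held all IgA mismatches and others in 10.2%, 15.3%, 15.7% and 15.5%, and only a part of them in 3.39%, 4.84%, 2.81% and 5.28%. Counted together, the IgM sequence alone had extra mismatches in 25, 417, 54 and 90 linked clonotypes and the IgA sequence alone in 4, 146, 19 and 34. Where IgM was in both technical tables, replicate 3 had the reverse for unmutated sequences, with an unmutated IgM sequence beside a mutated IgA sequence in 17.6% and the opposite in 11.8%. The joint counts were then closer, with 3, 107, 11 and 20 for IgM and 2, 73, 11 and 19 for IgA. These counts were not tested.

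**Figure D2:**
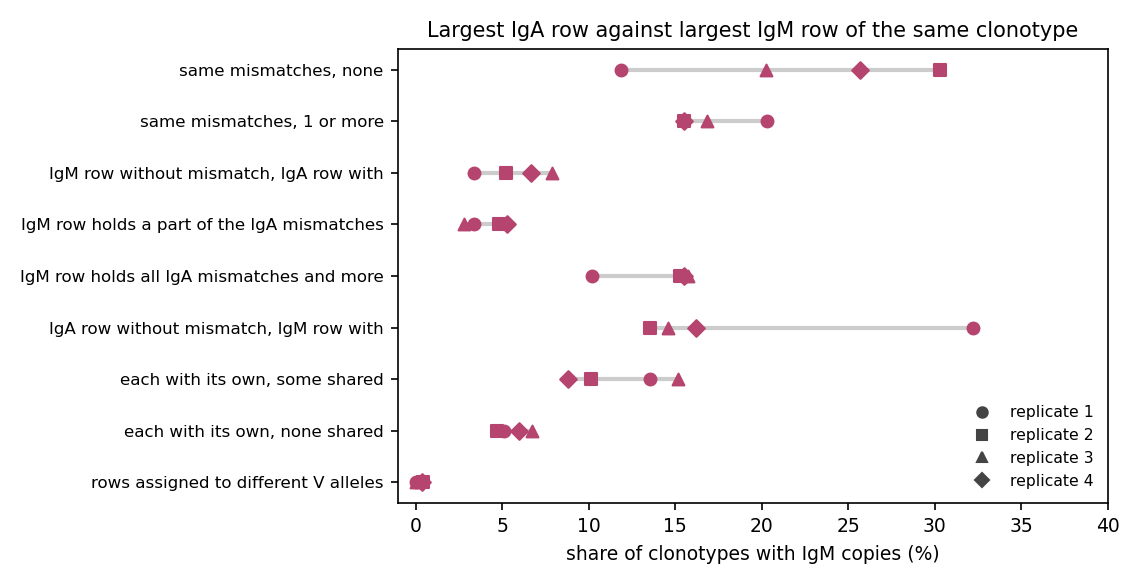
Share of linked clonotypes, in percent, in each relation between the mismatches of the IgA sequence and of the IgM sequence with the most copies. Each symbol is 1 spleen replicate and the grey line spans the 4 replicates. Identical unmutated pairs and unmutated IgA beside mutated IgM varied most between replicates (11.9% to 30.3% and 13.6% to 32.2%).

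J gene use differed most at IGHJ3. IGHJ3 was used by 23.7%, 11.7%, 15.7% and 15.8% of linked clonotypes, against 33.6%, 32.6%, 25.4% and 32.7% of unlinked ones, with no overlap. The means were 16.7% ± 5.04 in linked and 31.1% ± 3.79 in unlinked clonotypes (SD, n = 4), a difference of -14.3 points (exact sign-flip permutation, p = 0.125, 0.25 adjusted over 4 J genes). IGHJ2 was used by 32.2%, 42.9%, 34.8% and 34.9% of linked clonotypes, against 25%, 32.5%, 27.0% and 26.8% of unlinked ones, higher in 4 of 4 replicates but with 1 unlinked value above 1 linked value (exact permutation, adjusted p = 0.25). IGHJ1 averaged 21.0% ± 3.08 in linked and 18.6% ± 3.20 in unlinked clonotypes, and IGHJ4 26% ± 1.20 and 22.5% ± 4.58, each higher in 3 of 4 replicates. No J gene passed, and the sign-flip test cannot pass with 4 pairs. In the exact permutation test without pairing IGHJ3 had p = 0.0286, adjusted p = 0.114. With IgA in both tables IGHJ3 was still lower in linked clonotypes in 4 of 4 replicates (27.6%, 13.6%, 17.2% and 16.6% against 36.0%, 32.7%, 25.8% and 32.8%), while IGHJ2 was higher in 3 of 4.

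**Figure D3:**
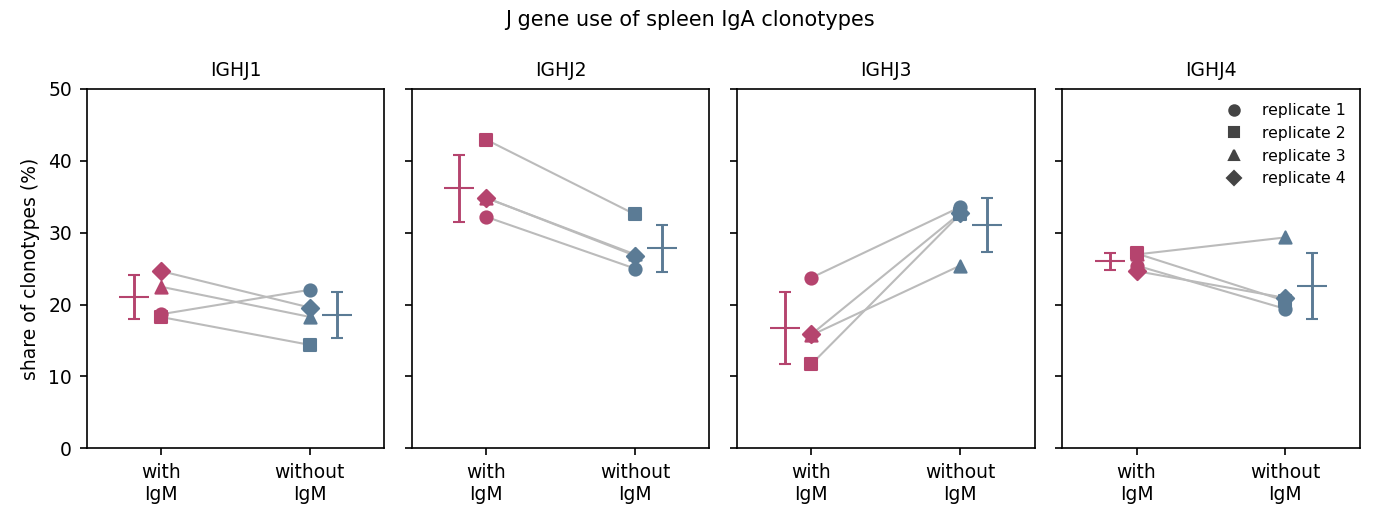
Share of spleen IgA clonotypes using each J gene, in percent, for clonotypes with IgM copies (left) and without (right) in each panel. Symbols are replicates, lines join values of 1 replicate, and bars are the mean ± SD of 4 replicates. In the IGHJ3 panel all 4 linked values (11.7% to 23.7%) lie below all 4 unlinked values (25.4% to 33.6%).

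For V gene use, clonotypes were counted by V gene, and 29 of 93 V genes passed the filter on low counts. Related clonotypes of 1 lineage each count here, and V gene use was not tested on lineages. At an adjusted p under 0.05 in edgeR's quasi-likelihood test with a replicate term, 2 V genes were higher in linked clonotypes (6.90%) and 2 were lower (6.90%). IGHV6-3 was used by 8.47%, 4.63%, 5.06% and 3.52% of linked clonotypes, against 0.886%, 1.28%, 1.84% and 1.09% of unlinked ones, with no overlap. Its log2 fold change was 1.64 ± 0.383 (SE, edgeR adjusted p = 0.00143). IGHV6-3 was still higher in the alternatives, but its call was lost with IgA in both tables (log2 1.01, edgeR adjusted p = 0.171) and without replicate 2 (log2 1.55, adjusted p = 0.151).

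IGHV7-3 was used by 1.69%, 1.94%, 2.25% and 2.82% of linked clonotypes, against 1.28%, 0.676%, 1.04% and 0.756% of unlinked ones (log2 1.21 ± 0.401 SE, edgeR adjusted p = 0.0327). RefSeq annotates Ighv7-3 at 114153180 to 114153644 of chromosome 12 as a V segment pseudogene in the reference strain. Its call was lost without replicate 1, 2 or 4 (edgeR adjusted p = 0.118, 0.460 and 0.0915), without the replicate term (0.314), without the filter (0.159) and in DESeq2 (0.439). Only 41 linked clonotypes used it in all, 1 of them in replicate 1.

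IGHV1-55 was used less by linked clonotypes, with 3.39%, 3.32%, 5.62% and 2.82%, against 11.5%, 7.70%, 6.34% and 8.57% of unlinked ones, with no overlap (log2 -1.37 ± 0.384 SE, edgeR adjusted p = 0.00852). Its call was lost with IgA in both tables (log2 -1.05, edgeR adjusted p = 0.187), with at least 10 IgA copies (adjusted p = 0.208) and without replicate 1, 2 or 4 (adjusted p = 0.118, 0.222 and 0.103). IGHV1-59 had 1.69%, 0.622%, 0% and 1.06% in linked and 1.28%, 1.88%, 2.65% and 0.714% in unlinked clonotypes (log2 -1.43 ± 0.503 SE, edgeR adjusted p = 0.0395). It was lower in only 2 of 4 replicates, and its call was lost without replicate 1 or 3 (adjusted p = 0.146 and 0.0759), without the replicate term (0.291), with at least 10 IgA copies (0.225), with IgA in both tables (0.451) and in DESeq2 (0.481). Ighv1-59 lies at 115335057 to 115335513. IGHV1-69 was not called (log2 -1.11, edgeR adjusted p = 0.114) but also showed no overlap. It had 0% to 1.06% of linked and 1.26% to 2.02% of unlinked clonotypes. It was called lower with at least 2 IgM copies and with IgM in both tables (edgeR adjusted p = 0.00283 and 0.00666). With IgA in both tables, 0 of 20 V genes tested passed in edgeR, and 3 had an unadjusted p under 0.05.

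**Figure D4:**
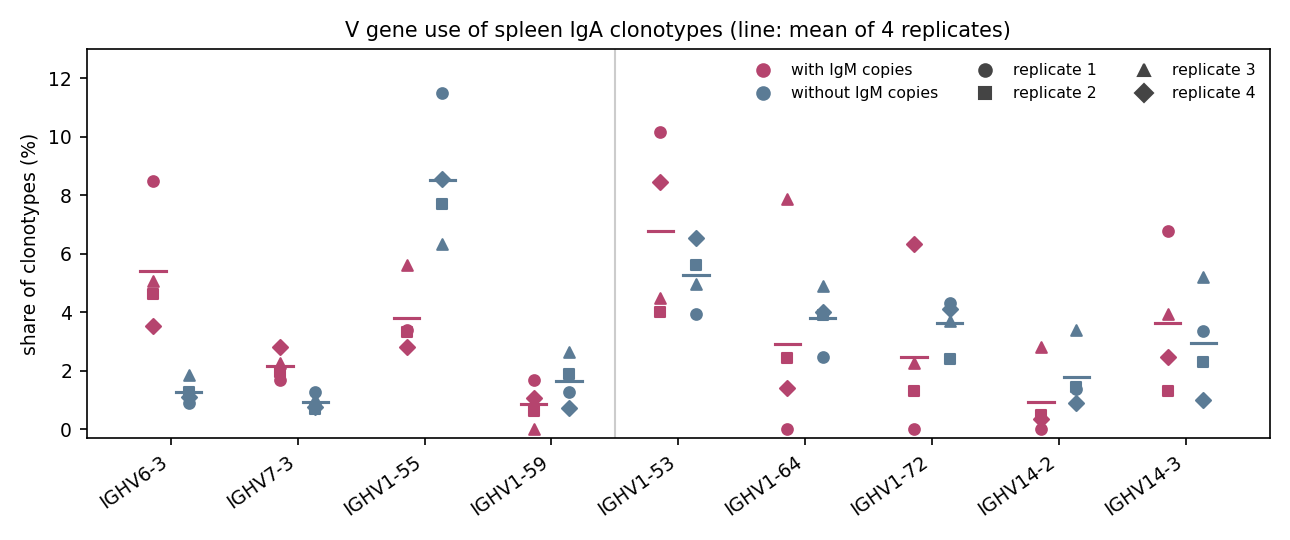
Share of spleen IgA clonotypes using each V gene, in percent, for clonotypes with IgM copies (left symbols) and without (right symbols). Symbols are replicates and short lines are means of 4. Left of the vertical line are the V genes past the threshold, of which IGHV6-3, IGHV7-3 and IGHV1-55 show no overlap between the groups, and right of it those tested from the listed V gene groups.

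V genes known from particular B cell subsets in mice were looked up as groups. IGHV11-1, IGHV11-2 and IGHV12-3, of the families that B-1 cells binding phosphatidylcholine use, were too rare to test, with 1, 6 and 12 linked clonotypes, against 0, 7 and 10 unlinked ones. All IGHV12-3 clonotypes, linked and unlinked, were in replicate 2. Of the natural antibody pair, IGHV7-1, which encodes the T15 antibody to phosphorylcholine, had 9 linked and 13 unlinked clonotypes and was not tested, and IGHV7-3 is given above. RefSeq annotates Ighv7-1, like Ighv7-3, as a V segment pseudogene in the reference strain. Of IGHV1-72, the V gene of the C57BL/6 response to nitrophenyl, and its relatives IGHV1-53 and IGHV1-64, 0 of 3 passed, with log2 values of -0.66, -0.20 and -0.68. In the IGHV14 family IGHV14-2 had log2 -1.27 (edgeR adjusted p = 0.0753) and IGHV14-3 -0.29, and the other 2 were too rare. The median log2 value over all 29 V genes tested was -0.16.

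CDR3 length did not separate the groups. The mean was 12.1, 11.7, 11.7 and 12.0 amino acids in linked clonotypes, against 11.9, 11.8, 12.0 and 12.1 in unlinked ones, lower in 3 of 4 replicates (difference -0.06 ± 0.189, exact sign-flip permutation, p = 0.625, n = 4). The direction of this small difference turned under 7 of 16 alternatives. In amino acid composition of the CDR3, 0 of 20 amino acids passed (0% called in either direction, limma), and 4 had an unadjusted p under 0.05. Tyrosine was nearest, with 19.9% of residues in linked and 19.2% in unlinked clonotypes (limma adjusted p = 0.0506, higher in 4 of 4 replicates), and phenylalanine had 6.47% and 7.49% (adjusted p = 0.0506, lower in 4 of 4 replicates). With IgA in both tables tyrosine passed (difference 1.0 points, limma adjusted p = 0.0456).

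Linked clonotypes were found in lymph node at a higher share in every replicate. In numbers, 9, 237, 34 and 64 linked clonotypes were found, against 36, 181, 75 and 117 unlinked ones. Of linked clonotypes 15.3%, 16.4%, 19.1% and 22.5% occurred in at least 1 lymph node replicate, against 3.54%, 6.79%, 4.32% and 4.91% of unlinked ones, with no overlap. The difference was 13.4 ± 3.51 percentage points (exact sign-flip permutation, p = 0.125, also after adjustment over 3 places, and 0.0286 adjusted in the exact test without pairing). With IgA in both tables it was 17.2%, 15.9%, 18.6% and 21.5%, against 6.26%, 6.61%, 4.24% and 4.80%. Within bins of IgA copies the mean difference was 11.3 points, higher in 4 of 4 replicates.

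Most of these matches were with the lymph node of the same replicate number. Spleen replicates 1 to 4 shared 10.2%, 14.7%, 18.0% and 21.5% of their linked clonotypes with the lymph node of that number, against 2.76%, 5.52%, 3.69% and 4.54% of their unlinked ones. With any other lymph node they shared 0% to 2.49% of linked and 0.0576% to 1.35% of unlinked clonotypes. In the lymph node, 77.8%, 46.4%, 50% and 56.2% of the matched linked clonotypes carried IgM copies, against 36.1%, 7.18%, 9.33% and 10.3% of the matched unlinked ones. IgA copies were present in 55.6%, 41.4%, 47.1% and 45.3% of matched linked clonotypes, against 72.2%, 71.3%, 84.0% and 77.8% of matched unlinked ones. In 4 of 4 replicates the matched linked clonotypes carried IgM in lymph node more often, and IgA less often, than the matched unlinked ones, which was not tested.

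**Figure D5:**
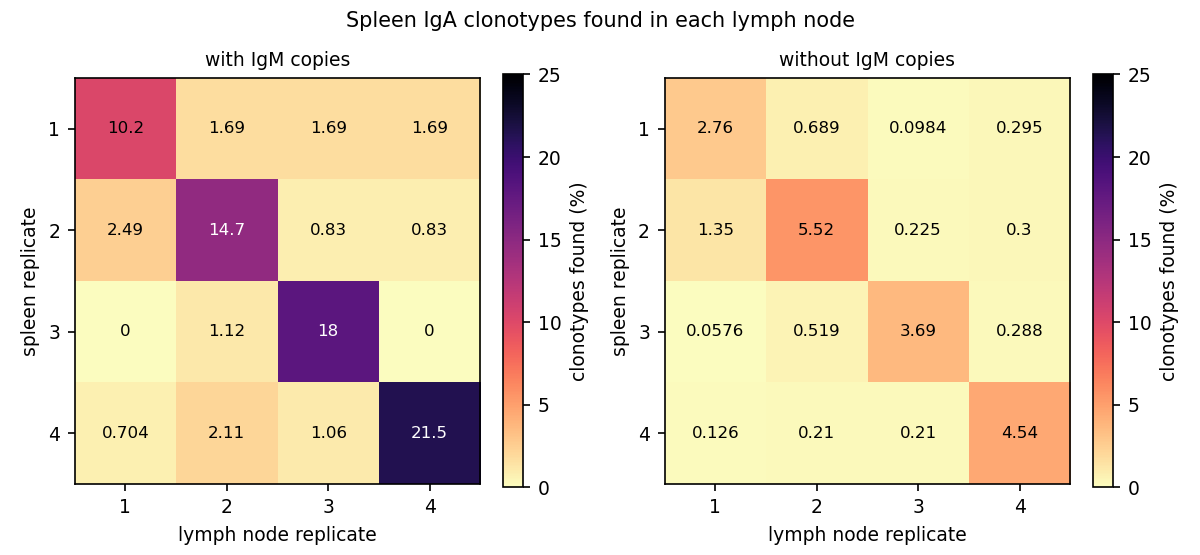
Percentage of spleen IgA clonotypes of each spleen replicate (vertical) found in each lymph node replicate (horizontal), with the value printed in each cell, for clonotypes with IgM copies (left) and without (right). The highest cell of every spleen replicate is the one with the same number, 10.2% to 21.5% with IgM copies and 2.76% to 5.52% without.

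Sharing with other places was lower. Found in another spleen replicate were 6.78%, 4.98%, 3.93% and 6.69% of linked clonotypes, against 2.07%, 1.20%, 1.44% and 1.34% of unlinked ones (exact sign-flip permutation, adjusted p = 0.125). With IgA in both tables these were 0%, 2.99%, 4.83% and 4.04%, against 3.03%, 1.23%, 1.47% and 1.34%, higher in 3 of 4 replicates. In skin 1.69%, 0.968%, 1.69% and 2.82% of linked clonotypes were found, against 0.689%, 0.450%, 0.922% and 0.882% of unlinked ones (adjusted p = 0.125 in the exact permutation test). In replicate 1, linked values rest on 59 clonotypes, so 1 clonotype is 1.69%.

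Copies of further classes varied between replicates, with IgG2 in replicate 2 the most frequent. IgG3, an early switched class in responses without T cell help, was present in 0%, 7.75%, 3.93% and 4.23% of linked clonotypes, against 0.197%, 2.25%, 0.288% and 0.420% of unlinked ones, higher in 3 of 4 replicates (difference 3.19 ± 2.41, exact permutation, adjusted p = 0.625). The 0 of 59 in replicate 1 allows a share of up to 5.08%. IgG2 was present in 1.69%, 18.5%, 3.93% and 6.69% of linked clonotypes, against 1.77%, 13.4%, 3.29% and 2.98% of unlinked ones (adjusted p = 0.625 in the exact test). IgD averaged 2.04% ± 2.14 in linked and 1.15% ± 0.620 in unlinked clonotypes, IgG1 1.10% ± 0.789 and 1.36% ± 0.365, and IgE 0.0519% and 0.128%. None of the 5 classes passed.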

How the data were processed

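Spleen heavy-chain repertoires of 4 biological replicates were used, with 2 technical tables each. Per the labels' protocols, heavy-chain RNA was copied by primers in the constant region, each adding a 10-nucleotide identifier, and read from framework 2 onwards. The deposited tables hold 1 line per distinct sequence, and the authors' whole-number count for it is called copies. Whether this count is of identifiers or of reads is not stated, so copies may carry amplification differences. The deposited tables also give V mismatches and aligned V length (median 144 nucleotides), which are not counts. Per the submitters' processing notes the build was mm10, with the aligner and gene caller not given in the sources used here. RefSeq (GRCm38.p6) gave positions for 88 of 93 V genes.

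Copies of both tables were added per replicate. Mutation was the mean over clonotypes of the copy-weighted mismatched percentage of aligned V nucleotides. Single values were compared within replicates by exact two-sided sign-flip permutation over 16 sign patterns, or without pairing over 70 splits, with Benjamini-Hochberg adjustment over J genes, classes or places. The pairing by replicate follows from linked and unlinked clonotypes coming from the same spleen. Whether biological replicates are separate mice is not stated beyond the label, so p-values measure the spread between these samples. V gene use was tested on clonotype counts with edgeR 4.0.16 (quasi-likelihood, replicate block, TMM factors 0.815 to 1.31, filterByExpr). Mutation by V gene and CDR3 amino acids were tested with limma 3.58.1 on R 4.3.3, and a V gene with fewer than 5 linked or unlinked clonotypes in a replicate left that replicate out. Other values were computed in scipy 1.17.1, pandas 2.3.3 and numpy 2.4.6 under Python 3.11.15. On simulated counts the edgeR step recovered 100% of 6 V genes changed 4-fold among 28, with 0 false calls, and the limma step 100% of 3 V genes changed by 2 percentage points among 10.

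Alternatives were a minimum of 10 IgA copies, at least 2 IgM copies, bins of IgA copies, thinning to 162168 copies (20 draws), lineages (single linkage of CDR3s at 85% identity among clonotypes of equal V gene, J gene and length), each technical table alone, clonotypes in no other spleen, each sequence counted once, no replicate block, each replicate left out, DESeq2 1.42.0, no filter and no scaling. Requirements that IgA or IgM copies be in both technical tables or IgM in 1, the sequence with the most copies alone, clonotypes with a mismatch in their largest IgA sequence, and all alternatives of the linked share were chosen after seeing the data. Lineages were used only for IgA mutation over all V genes, unmutated share, CDR3 length, J gene use and the linked share. V gene use and mutation by V gene were not repeated on lineages. V genes were named if past an adjusted p of 0.05, up to 10 in each direction by size, or in a listed group. All J genes, classes and places were given. Clonotypes were named among the 3 with most IgA or IgM copies per replicate, with IgA in both tables. The clonotypes and lists were chosen with earlier results of these data known.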

Additional observations from a re-analysis of the deposited data

Results flagged for a closer look

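In 8 of 33 groups of 4 replicates, 1 replicate lay far from the other 3, where chance gives about 1 in 20 for independent, normally distributed groups. These groups are not independent, since the J gene shares of a replicate depend on each other. The count of 8 can therefore not be set against that rate. Replicate 4 had the lowest mutation among linked clonotypes, 1.90% in IgA sequences (the others 2.21% to 2.27%) and 2.0% in IgM sequences (the others 2.38% to 2.43%). Replicate 1 had the most unlinked clonotypes without V mismatch, 19.2%, against 1.96% to 4.50% in the others. Replicate 3 stood apart in J gene use of unlinked clonotypes, with 25.4% IGHJ3 (the others 32.6% to 33.6%) and 29.3% IGHJ4 (the others 19.4% to 20.9%). Replicate 2, the deepest, had IgG2 copies in 13.4% of unlinked clonotypes (the others 1.77% to 3.29%) and IgG3 copies in 2.25% (the others 0.197% to 0.420%). It also held the only linked clonotypes with IgE copies, 0.207%. The causes were not tested.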

How the results depend on the processing

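The lower IgA mutation of linked clonotypes kept its direction in the mean under all 19 alternatives, from -1.67 points with IgM in both technical tables to -0.22 with IgA in both tables and the main sequence alone. Without the replicate block its exact test had p = 0.0286 for the same difference of -0.85, as did the IgM comparison at 1.98. Ignoring the block also brought all 3 places under the threshold, where 0 passed with it, and left 2 V genes called for use and 1 for mutation. The higher unmutated share turned to -1.31 points with IgA in both tables and kept its direction in the other 17, from 4.24 with the main sequence alone in such clonotypes (4.58 for lineages, 7.43 with at least 10 IgA copies) to 26.3 with IgM in both tables, against 13.9. The linked share averaged 15.2% over replicates, 47.1% for lineages and 8.48% to 18.4% with 1 replicate left out. With IgM in both tables it was 6.80%, where clonotypes with IgM in 1 table were left out of the total as well.

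CDR3 length turned to 0.27 amino acids with at least 10 IgA copies, 0.0414 within bins, 0.34 after thinning, 0.0375 in clonotypes of no other spleen, 0.44 in clonotypes with a mismatch, 0.48 with IgA in both tables and ranged from -0.14 to 0.0052 (without replicate 3) with 1 replicate left out. IGHJ1 turned to -0.205 and -0.215 points with either technical table alone and -0.391 with IgM in both tables. IgD turned to -0.247 after thinning, IgG1 to 0.0296 in clonotypes with a mismatch and 0.276 without replicate 1 (down to -0.487 without replicate 2), IgE to 0.0301 without replicate 1 (down to -0.145 without replicate 2) and sharing with skin to -0.0545 with IgM in both tables. IGHJ3 and lymph node sharing kept their direction in all 16 and 11 alternatives.

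V gene use, with 4 calls, had 2 under DESeq2, 2 with at least 10 IgA copies, 0 with IgA in both tables and 0 to 8 with 1 replicate left out (0 without replicate 2). IGHV7-3 failed the filter with IgA in both tables. IGHV1-53 turned to log2 0.0135 without scaling, 0.26 with at least 10 IgA copies, 0.26 with at least 2 IgM copies and ranged from -0.30 to 0.20 with 1 replicate left out (0.08 without replicate 2). IGHV14-3 turned to 0.0856 with at least 10 IgA copies, 0.21 with at least 2 IgM copies, 0.14 without replicate 3, and ranged from -0.59 to 0.18 (without replicate 2). Mutation by V gene, with 4 calls, had 2 with 3 clonotypes per class, 1 with IgA in both tables and 0 to 4 with 1 replicate left out, where 3 V genes were tested without replicate 2, 3 or 4. Amino acids had 1 call with IgA in both tables and 0 to 4 with 1 replicate left out. The causes were not tested. Depth limits replicate 1 most, with 59 linked clonotypes.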

Other observations

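Within the V segment, mismatches of the main IgA sequence were denser in CDR2 than in framework 3 in linked as in unlinked clonotypes. The ratio of the CDR2 to the framework 3 percentage was 1.82, 1.69, 1.81 and 2.06 in linked clonotypes of replicates 1 to 4, and 1.70, 1.68, 1.78 and 1.68 in unlinked ones. Replacement mismatches per silent mismatch numbered 2.94, 3.24, 3.14 and 3.15 in linked clonotypes, against 2.95, 2.72, 2.98 and 2.59 in unlinked ones. Both are given without a test.

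By V family, linked clonotypes used IGHV1 in 64.4%, 55.9%, 59.6% and 58.5% of cases, against 72.3%, 70.5%, 63.9% and 68% of unlinked ones, lower in 4 of 4 replicates. IGHV6, the family of IGHV6-3, had 8.47%, 7.47%, 6.74% and 3.52% of linked clonotypes, against 1.28%, 3.08%, 2.71% and 1.51% of unlinked ones. In replicate 3 the IGHV1-64/IGHJ4 clonotype with the most IgM copies (2083 IgM, 441 IgA) had the CDR3 AREDFVSYAMDS. Another large linked clonotype with the same V and J genes (587 IgM, 1564 IgA) had AREDFVSYAMDY, and the junctions differ at 1 base. They count as separate clonotypes here and as 1 lineage at 85% CDR3 identity.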
